A study of Mus musculus with 3 samples.

Results

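Messenger RNA of 10 Polycomb complex genes was examined in mouse CD4 T cells of the effector memory type, helper cells that have met antigen and patrol tissues. The genes were Ezh1, Ezh2, Eed, Suz12, Jarid2, Bmi1, Ring1, Rnf2, Cbx7 and Pcgf5, matched by their GENCODE M21 symbols. All 10 were found among the 55536 annotated genes of the deposited gene tables, of which 22028 are protein-coding. The cells are labelled as primary alpha-beta T cells of an adult male mouse aged 5 months, of strain B6.SJL-Ptprca Pepcb/BoyJ. This is a C57BL/6 line that carries another allele of Ptprc, the gene of the leukocyte marker CD45. The 3 polyA-selected libraries are labelled technical replicates 1, 2 and 3 of 1 biosample and form 1 group. No conditions were therefore compared, and each SD measures the spread between libraries of the same biosample. The labels name a whole organism as the origin of the cells, and the sources used here do not give the sort gate or say whether animals were pooled.

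Polycomb group proteins keep genes silent through marks on histones. Polycomb repressive complex 2 (PRC2) methylates lysine 27 of histone H3, with EZH1 or EZH2 as the catalytic subunit, SUZ12 as the scaffold and EED as the subunit that binds the finished mark. Polycomb repressive complex 1 (PRC1) attaches ubiquitin to histone H2A through RING1 or RNF2, the proteins also called RING1A and RING1B. A PCGF protein sets the kind of PRC1: BMI1 belongs to the canonical form, which reads the PRC2 mark through a CBX protein such as CBX7, and PCGF5 belongs to a variant form without a CBX protein. In T cells, PRC2 is known for restraining helper lineage genes and for supporting memory and effector differentiation.

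Expected counts on annotated genes came to 17475086, 15303744 and 16882441 in libraries 1, 2 and 3. Levels are in TPM, transcripts per 1e+06 transcripts, scaled by transcript length within each library, and detection here means 1 TPM or more in each of the 3 libraries. All 7 T cell identity genes checked, among them Trac, Cd3e and Cd4, were detected, whereas none of 5 B cell and none of 5 myeloid markers was. The defining CD8 gene Cd8a had 3 counts over the libraries, while Cd8b1 averaged 8.18 TPM and Klrb1c, the 1 of 3 natural killer markers detected, 8.68 TPM. Of 6 mitotic genes only Top2a was detected, and Mki67, the proliferation marker, averaged 0.670 ± 0.165 TPM (SD, n = 3). Library 1 stood apart from libraries 2 and 3 across the transcriptome, so the values of the 10 genes are given for each library, as are those of other genes whose SD is large.

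All 10 Polycomb complex genes were detected, as were 44.9% of protein-coding genes and 21.1% of all annotated genes. Their mean TPM ranged 8.35-fold, with 21.6 for Ring1 at the low end and 180 for Eed at the high end. The median over the 10 genes was 67.7 TPM, beside 28.9 TPM for the 9900 detected protein-coding genes. Since TPM is per length, these levels can be set beside each other. In bulk RNA, fewer cells with a transcript and less of it per cell cannot be told apart.

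The catalytic pair of PRC2 was led by Ezh1. Ezh1, on chromosome 11 (101191115 to 101226463, minus strand, GRCm38), stood at 84.2 TPM in library 1, 80.9 TPM in library 2 and 66.2 TPM in library 3. Ezh2, on chromosome 6 (47530139 to 47595341, minus strand), had 36.8, 43.1 and 34.1 TPM in the same order. The lowest Ezh1 value stood above the highest Ezh2 value, so the ranges did not overlap. Ezh1 held 67.0% ± 2.30 of the summed TPM of the pair (SD, n = 3), a ratio of 2.04 ± 0.219. The share ranged over 69.6%, 65.3% and 66.0% for libraries 1, 2 and 3. EZH1 is known as the enzyme of resting cells and EZH2 as that of dividing cells. EZH1 and EZH2 are paralogs, and the quantifier's deposited posterior SD of the gene count was at most 0.163% of the count for any of the 10 genes in any library. That SD was 0 for Ezh1, Jarid2 and Ring1 in each library. It thus leaves out counting error and does not give the precision of the levels.

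The start regions of the pair are shown because E2F factors, which act in dividing cells, are known to regulate EZH2. Each window runs over 300 bases, 250 before and 50 after the RefSeq start (GRCm38.p6), and lies at chr6:47594981-47595280 for Ezh2 and chr11:101226414-101226713 for Ezh1, both on the minus strand. Capitals mark the E2F core TTTNGCGC and the CCAAT box, each searched on both strands.
Ezh2: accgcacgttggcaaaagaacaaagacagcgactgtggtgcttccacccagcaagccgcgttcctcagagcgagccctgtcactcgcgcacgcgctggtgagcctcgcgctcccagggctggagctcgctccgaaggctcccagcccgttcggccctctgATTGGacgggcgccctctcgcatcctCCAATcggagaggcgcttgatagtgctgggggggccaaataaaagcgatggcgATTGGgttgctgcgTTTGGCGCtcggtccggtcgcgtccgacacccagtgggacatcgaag
Ezh1: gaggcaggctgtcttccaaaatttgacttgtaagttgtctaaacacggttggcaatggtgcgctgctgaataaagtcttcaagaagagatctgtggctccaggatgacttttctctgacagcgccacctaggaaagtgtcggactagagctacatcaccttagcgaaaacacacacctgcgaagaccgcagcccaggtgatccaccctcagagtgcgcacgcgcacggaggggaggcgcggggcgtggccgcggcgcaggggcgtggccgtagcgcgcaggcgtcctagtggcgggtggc
The Ezh2 window held 1 E2F core and 3 CCAAT boxes, and the Ezh1 window held neither sequence. Of 32851 windows of this length, 1.38% held the E2F core and 37.4% held CCAAT. Among the 13 windows of the 10 genes, Ezh2 alone held the E2F core, and 7 windows of 6 genes held CCAAT. The GC box GGGCGG lay in 9 of the 13 windows, those of 7 genes, and in 35.7% of all windows. The 13 windows had a median of 30 CG dinucleotides and 66.3% GC, beside 7 and 52.7% over all windows. A match describes the letters in the window and is no evidence of binding.

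Eed had the highest level of the 10 genes. This gene, on chromosome 7 (89954654 to 89980983, minus strand), had 250.3 TPM in library 1, 149 TPM in library 2 and 141 TPM in library 3, a mean of 180 ± 61.1 (SD, n = 3). Its level exceeded that of 90.8% of detected protein-coding genes. Suz12, on chromosome 11 (79993106 to 80034123, plus strand), had 62.2, 39.9 and 42.3 TPM, a mean of 48.1 ± 12.2 (SD, n = 3). Both genes were highest in library 1, and Eed exceeded Suz12 by a ratio of 3.69 ± 0.349 (SD, n = 3). EED, SUZ12 and an EZH protein assemble in equal number in the complex. The TPM of Eed was 2.07, 1.199 and 1.41 times that of Ezh1 and Ezh2 summed in libraries 1, 2 and 3. The mean was 1.56 ± 0.454 (SD, n = 3), with library 1 highest. With protein-coding transcripts alone, a choice made after seeing the data, Eed had 178, 98.5 and 93.5 TPM. These Eed values still include the shorter Eed-205, with 354 coding bases against 1323 in Eed-201. On the same basis Suz12 had 45.5, 37.2 and 36.1 TPM, below Eed in each library. Ezh1 then had 70.9, 63.5 and 52.3 TPM and Ezh2 had 28.1, 29.05 and 26.7 TPM. Eed thus stood close to the sum of the pair in libraries 2 and 3, but not in library 1. Messenger RNA levels do not give protein levels. Jarid2 encodes an accessory subunit that helps PRC2 reach chromatin. It lies on chromosome 13 (44729474 to 44921643, plus strand) and had 41.5, 69.8 and 63.8 TPM, a mean of 58.4 ± 14.9 (SD, n = 3), with library 1 lowest.

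Among the PRC1 genes, Rnf2 was the main RING gene. Rnf2, on chromosome 1 (151458004 to 151500955, minus strand), had 109, 119 and 107.6 TPM in libraries 1, 2 and 3. Ring1, on chromosome 17 (34020792 to 34024680, minus strand), had 17.4, 23.6 and 23.6 TPM, the lowest level of the 10 genes. Rnf2 held 83.9% ± 2.13 of the TPM of the pair (SD, n = 3), a ratio of 5.29 ± 0.872. No library placed Ring1 near Rnf2. Cbx7, on chromosome 15 (79915807 to 79971119, minus strand), had 70.6, 140.1 and 136 TPM, so library 1 stood well below the other libraries. Its mean was 116 ± 39.1 TPM (SD, n = 3).

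The PCGF genes differed from each other as well. Pcgf5, on chromosome 19 (36348309 to 36460970, plus strand), had 96.3, 107 and 94.1 TPM, a mean of 99.1 ± 6.93 (SD, n = 3). Bmi1, on chromosome 2 (18677018 to 18686629, plus strand), had 59.8, 40.04 and 45.2 TPM, a mean of 48.3 ± 10.3 (SD, n = 3). Pcgf5 was above Bmi1 in every library, with no overlap of their ranges. Protein-coding transcripts alone, a choice made after seeing the data, gave Pcgf5 63.7, 66.6 and 60.4 TPM. Bmi1 then had 53.6, 40.04 and 38.0 TPM, so the order held and the genes were closest in library 1. Of the TPM summed over the 6 Pcgf genes, Pcgf5 held 48.2% ± 3.45 and Bmi1 23.4% ± 4.43 (SD, n = 3). Without division by transcript length, the Pcgf5 share of expected counts was 42.6% and the Bmi1 share 32.2%. Among the 5 Polycomb Cbx genes, Cbx7 held 55.0% ± 5.55 (SD, n = 3), with 48.6% in library 1, 57.5% in library 2 and 58.8% in library 3.

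**Figure D1:**
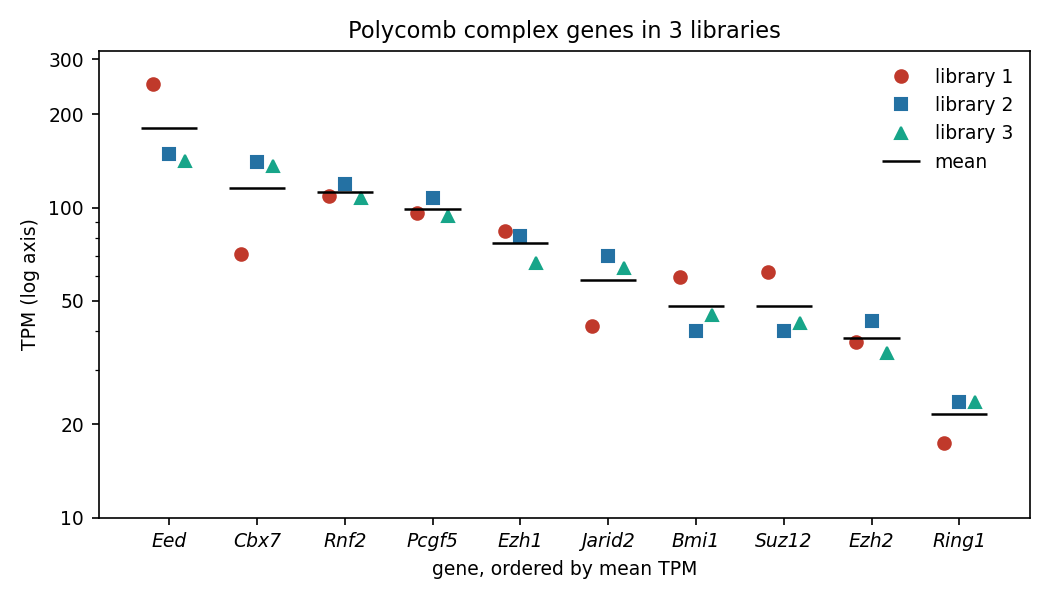
TPM on a log axis of the 10 Polycomb complex genes in libraries 1 (circles), 2 (squares) and 3 (triangles), ordered by the mean of the 3 libraries (bar). Eed sits highest with library 1 at 250.3 TPM, Ring1 lowest, and library 1 lies apart from the other libraries for Eed, Cbx7, Jarid2, Bmi1, Suz12 and Ring1.

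By mean TPM the order was Eed, Cbx7, Rnf2, Pcgf5, Ezh1, Jarid2, Bmi1, Suz12, Ezh2 and Ring1. Of the 9 pairs of neighbours in that order, 4 had ranges over the libraries that did not overlap. These were Eed over Cbx7, Rnf2 over Pcgf5, Pcgf5 over Ezh1 and Ezh2 over Ring1. Rnf2 and Pcgf5 were set apart only by 107.6 TPM, the lowest value of Rnf2, and 107.04 TPM, the highest of Pcgf5. Their deposited TPM intervals, whose level is not stated, overlapped in 3 of 3 libraries, and those of Eed and Cbx7 in 2 of 3. These intervals surround a separate deposited posterior mean of TPM, so a TPM given here can lie outside its interval. Eed in library 1, at 250.3 TPM, had a posterior mean of 222 and an interval of 208 to 236. Eed and Cbx7 were close in libraries 2 and 3, at 149 and 140.1 TPM in library 2 and 141 and 136 TPM in library 3. The remaining neighbours overlapped, namely Cbx7 with Rnf2, Ezh1 with Jarid2, Jarid2 with Bmi1, Bmi1 with Suz12 and Suz12 with Ezh2. Ezh1 was above Jarid2 in 3 of 3 libraries, and each of the other overlapping pairs kept its order in 2 of 3. Bmi1 and Suz12 differed least, with means of 48.3 and 48.1 TPM. The order changed in part with protein-coding transcripts alone, a choice made after seeing the data. Cbx7 then stood above Eed in libraries 2 and 3, at 119 against 98.5 TPM and 113 against 93.5 TPM. Ezh1 then stood above Pcgf5 in library 1, at 70.9 against 63.7 TPM. Rnf2 stayed above Pcgf5 and Ezh2 above Ring1 in every library.

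The 10 genes were set beside 46 other Polycomb genes, grouped by role, of which 41 were detected. The median mean TPM was 26.8 over those 41 and 23.1 over all 46. The lists by role below also hold the 10 genes themselves. All 6 PRC2 core genes were detected, and the histone chaperones Rbbp4 at 217 ± 4.19 TPM and Rbbp7 at 192 ± 75.7 TPM had higher means than Eed (SD, n = 3). Rbbp7 had 279 TPM in library 1, with 155 and 143 TPM in libraries 2 and 3. Of 8 PRC2 accessory genes, Jarid2 among them, 7 were detected, and those 7 had a median of 58.4 TPM, the value of Jarid2. Aebp2, a cofactor of the PRC2 form that also holds JARID2, was the highest of them at 257 ± 27.7 TPM (SD, n = 3). Phf19, a Polycomb-like subunit, was not detected, with 0.840 TPM in library 1, 3.07 in library 2 and 2.02 in library 3. Its relatives, named after their values were seen, differed between the libraries in opposite directions. Mtf2 had 97.4, 62.0 and 59.5 TPM in libraries 1, 2 and 3, and Phf1 had 25.8, 123 and 119 TPM.

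All 6 Pcgf genes and 4 of 5 Cbx genes passed detection. The exception was Cbx2, at 0.400, 1.5 and 1.34 TPM in libraries 1, 2 and 3. Of 6 PHC and SCM genes, which encode partners of canonical PRC1, 5 were detected, led by Phc2 with 68.5, 134 and 122 TPM. Scml2 averaged 0.0567 TPM. Of 12 variant PRC1 genes 11 were detected, and those 11 had a median of 26.3 TPM. Usp7 had 52.6, 135 and 113 TPM, and Kdm2b, which binds CpG islands, had 42.8, 102 and 88.3 TPM, both lowest in library 1. Auts2, whose product joins PCGF5-type and PCGF3-type PRC1, averaged 0.317 TPM. The enzymes that remove the 2 marks were present too. Bap1, which takes ubiquitin off H2A, averaged 66.4 ± 4.28 TPM (SD, n = 3). The lysine 27 demethylase Kdm6a had 31.8, 75.4 and 66.4 TPM, and Kdm6b had 21.1, 43.0 and 39.8 TPM. In the list of Bap1 and its partners 7 of 8 were detected, without Asxl3. Uty, the Y-linked relative of Kdm6a, averaged 47.6 ± 3.38 TPM (SD, n = 3).

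Genes classically held silent by Polycomb were near 0. Of 15 such genes only Cdkn2b, a cell cycle inhibitor, was detected, at 3.26 ± 0.433 TPM (SD, n = 3). Hoxa10, Hoxc8 and Hoxd13 had 0 counts in every library. The other 11, among them Cdkn2a, Pax6, Gata4 and Sox17, had means of at most 0.410 TPM. No mark or binding was measured here, so these values say only that the transcripts were few.

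**Figure D2:**
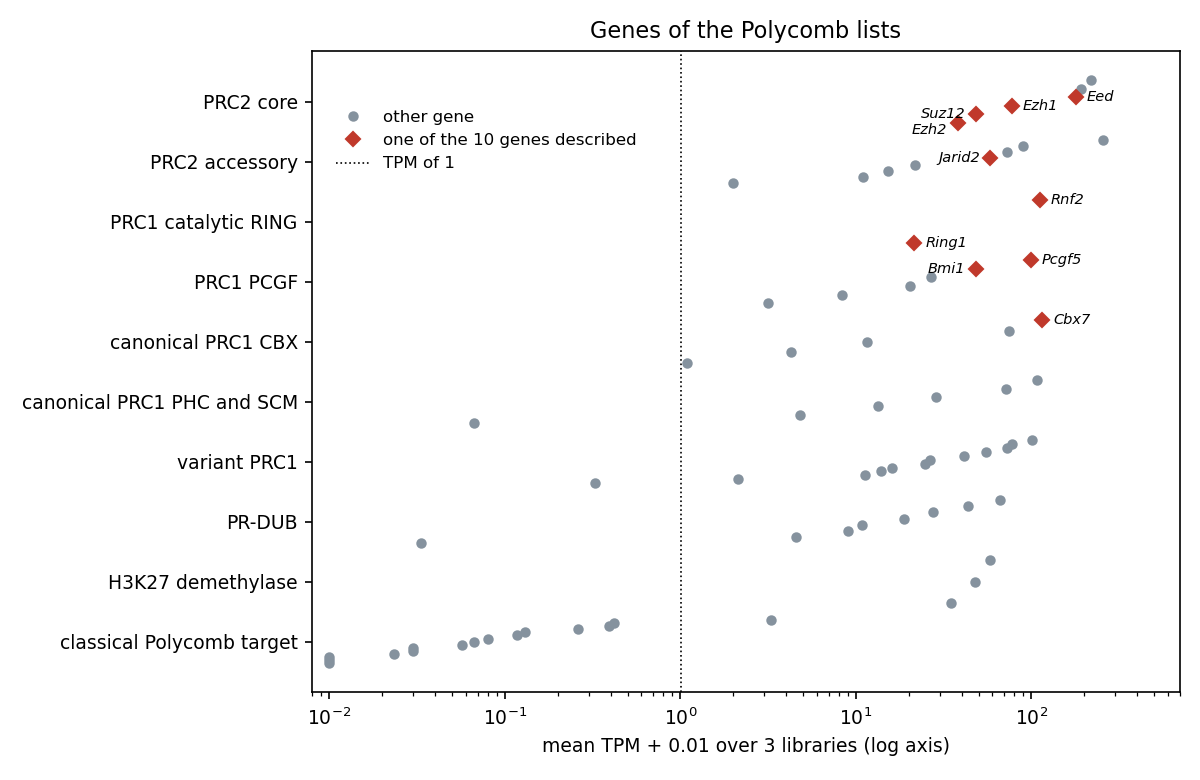
Mean TPM + 0.01 over the 3 libraries on a log axis for each gene of the Polycomb lists, 1 row per list, with the 10 genes described as diamonds, other genes as circles and a dotted line at a TPM of 1. Complex subunits lie mostly to the right of the line, and 14 of 15 classical targets lie to its left.

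The transcript tables listed 93 annotated transcripts for the 10 genes, of which 23 stood at 0 in every library. The authors' percent values give the share of each transcript in its gene. In all 10 genes the transcript with the highest mean share was protein-coding, in 5 genes that share exceeded 50%, and in 9 genes it led in every library. These shares count transcripts per length. As shares of expected counts, 7 of the 10 leading transcripts exceeded 50%, Eed-201 had 72.5% and Jarid2-208 had 61.2%. Ring1-201 carried 80.7% ± 2.88 of Ring1 and Rnf2-201 carried 78.7% ± 5.46 of Rnf2 (SD, n = 3). The retained-intron transcript Ring1-203 had a further 14.9% ± 1.92. Suz12-201 carried 71.9% ± 7.58, Cbx7-203 carried 51.6% ± 5.49 and Bmi1-202 carried 51.5% ± 8.33 of their genes (SD, n = 3). The second Bmi1 transcript, Bmi1-201, had 37.8% ± 4.77 and encodes the same coding length of 972 bases. Cbx7-201 with 23.8% ± 1.98 has a coding length of 753 bases, against 474 bases in the leading Cbx7-203. The protein-coding Cbx7-202, also with 474 coding bases, had a mean share above 10% and below that of Cbx7-201. Lower shares led in Eed and Jarid2. Eed-201 had 45.9% ± 0.831, the shorter Eed-205 had 21.9% ± 1.87 and the retained-intron Eed-207 had 18.2% ± 1.64 (SD, n = 3). Jarid2-208 had 41.0% ± 3.18 and Jarid2-201, of the same coding length of 3702 bases, had 18.8% ± 7.003 (SD, n = 3).

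Ezh1 was the exception to a single leading transcript. Ezh1-203 had shares of 45.6%, 35.1% and 49.8% in libraries 1, 2 and 3, and Ezh1-202 had 31.0%, 38.6% and 23.8%. Ezh1-202 thus led in library 2 and Ezh1-203 in the others. Their coding lengths, 2250 and 2241 bases, differ by 9 bases.

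Ezh2 was spread over more transcripts. Ezh2-201 led with 42.1%, 30.3% and 53.2% in libraries 1, 2 and 3, a mean of 41.9% ± 11.5 (SD, n = 3). The shorter Ezh2-205 had 13.3% ± 3.096 (SD, n = 3). Ezh2-204 had 7.44% ± 2.87 (SD, n = 3) and differs in 2 coding stretches, of which each transcript holds 1. Ezh2-202 had 18.2%, 15.7% and 0% and lacks 126 of the 2238 coding bases of Ezh2-201. The stretches are shown because the transcripts differ there in coding sequence. They come from the GENCODE M21 transcripts, on the minus strand of chromosome 6, with the stretch that the other transcript lacks in capitals and 15 bases on either side in lower case. They lie at chr6:47576536-47576562, chr6:47551717-47551731 and chr6:47541845-47541970.
Ezh2-201 against Ezh2-204: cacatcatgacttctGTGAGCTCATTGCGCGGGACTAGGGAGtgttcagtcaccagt
Ezh2-204 against Ezh2-201: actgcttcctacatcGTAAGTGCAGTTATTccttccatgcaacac
Ezh2-201 against Ezh2-202: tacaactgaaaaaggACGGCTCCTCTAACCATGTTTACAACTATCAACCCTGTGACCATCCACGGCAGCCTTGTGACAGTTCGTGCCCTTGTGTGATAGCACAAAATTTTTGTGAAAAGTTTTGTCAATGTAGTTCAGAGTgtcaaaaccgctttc
The stretches are 27, 15 and 126 bases long, each a whole number of codons. The value of 0 for Ezh2-202 in library 3 is an estimate from 744.72 expected counts for the whole gene.

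Suz12 and Pcgf5 each had a further coding transcript above 10% of the gene. Suz12-206, with 12.1% ± 3.41 (SD, n = 3), lacks 69 coding bases that Suz12-201 holds at chr11:79999057-79999125 on the plus strand. Pcgf5-210, with shares of 14.2%, 3.11% and 13.7% in libraries 1, 2 and 3, holds 60 coding bases at chr19:36450564-36450623 on the plus strand that the leading Pcgf5-202 lacks. They are shown in the same way, with the stretch in capitals.
Suz12-201 against Suz12-206: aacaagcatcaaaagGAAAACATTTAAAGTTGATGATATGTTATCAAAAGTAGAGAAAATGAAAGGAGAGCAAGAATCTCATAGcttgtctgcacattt
Pcgf5-210 against Pcgf5-202: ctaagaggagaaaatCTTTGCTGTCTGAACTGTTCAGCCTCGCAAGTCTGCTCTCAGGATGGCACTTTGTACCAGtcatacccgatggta
Pcgf5-202 carried 37.2% ± 5.53 of Pcgf5, followed by the non-coding Pcgf5-205 with 30.5% ± 1.86 (SD, n = 3). Pcgf5 thus had the lowest share of its leading transcript among the 10 genes.

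Retained-intron transcripts separated the libraries for Cbx7 and Jarid2. Cbx7-207, which keeps an intron, had 67.4, 1146 and 1331 expected counts by library, which is 1.48%, 15.3% and 15.7% of the gene's transcripts. Jarid2-215 had 0.09, 183 and 164 expected counts, or 0.02%, 23.3% and 19.5%. Library 1 was far below the other libraries for both. Suz12-205 went the other way, with 24.0%, 0% and 7.27%. Over all genes, retained-intron transcripts took 7.56%, 9.20% and 9.15% of counts in libraries 1, 2 and 3.

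**Figure D3:**
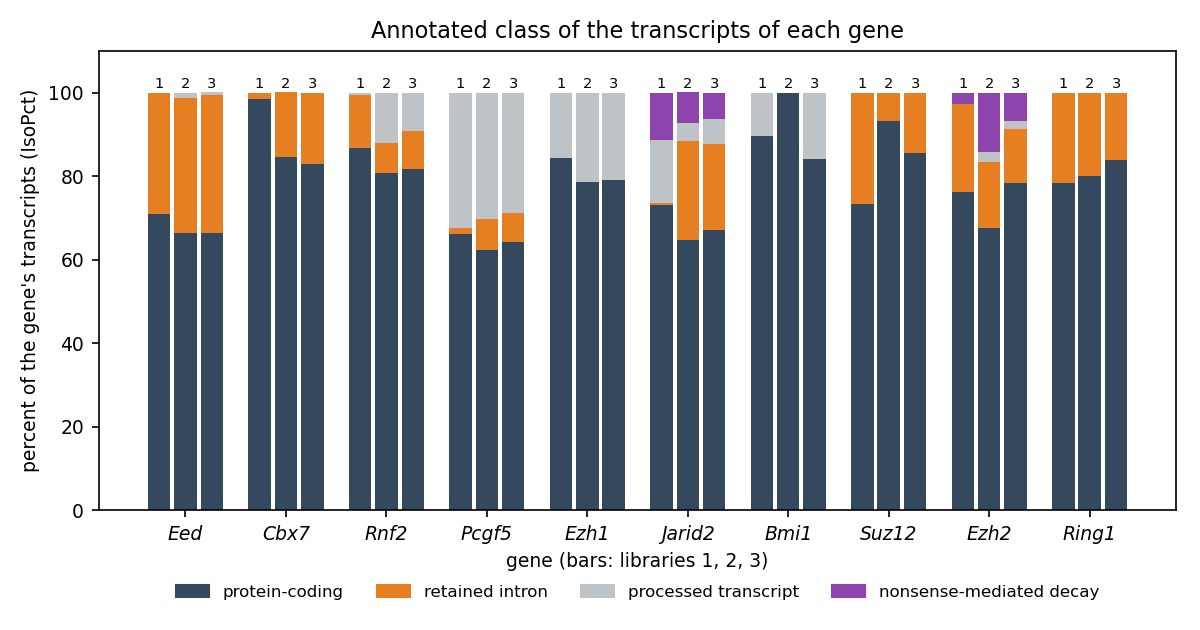
Share of each gene's transcripts (the authors' percent values, 0 to 100) that falls to each annotated transcript class, with 1 bar for each of libraries 1, 2 and 3. Protein-coding transcripts form most of every bar, and retained-intron shares of Cbx7 and Jarid2 are small in library 1 and larger in libraries 2 and 3.

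Counts of 8 of the 10 genes varied between the 3 libraries beyond counting error by a chi-square test of homogeneity, Benjamini-Hochberg adjusted over all 13177 genes tested, and so did 75.8% of those genes. The exceptions were Rnf2 with an adjusted p of 0.0655 and Ezh2 with an adjusted p of 0.704. The test compares these libraries, and the median gene varied 19.9 times as much as counting error allows. After division of each statistic by that factor, 3 of the 10 genes were called, namely Eed, Cbx7 and Jarid2, beside 21.6% of all genes tested. Between libraries 2 and 3, 1 of the 10 genes was called and 1 had an unadjusted p below 0.05, beside 16.7% of genes called. That gene was Ezh1, with 2412 expected counts in library 2 and 2317 in library 3 (chi-square test on counts, adjusted p = 4.02e-05). Its TPM was 80.9 in library 2 and 66.2 in library 3, a log2 difference of 0.29. The log2 difference in TPM was larger for Ezh2, at 0.33, though its counts were not called (adjusted p = 0.926). Ezh2 had 668 expected counts in library 2 and 745 in library 3. The test sets counts against library totals and does not use transcript length, by which TPM is scaled.

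The differences of library 1 ran in both directions. A gene was counted as higher or lower in library 1 when it was called by the chi-square test, lay outside both other libraries and differed from their geometric mean by more than 1.5-fold. Eed and Suz12 were higher, 2 of 10 genes beside 16.0% of all genes tested. Cbx7 and Jarid2 were lower, 2 of 10 beside 24.1%. On the log2(TPM + 1) scale, library 1 differed from the mean of libraries 2 and 3 by 0.79 for Eed (adjusted p = 3.00e-140) and by 0.59 for Suz12 (adjusted p = 4.05e-22). The differences were -0.96 for Cbx7 (adjusted p = 8.61e-244) and -0.67 for Jarid2 (adjusted p = 4.25e-48). These adjusted p-values are those of the chi-square test on the counts of all libraries, not of the TPM differences. Suz12 lay just past the 1.5-fold limit, at a ratio of 1.51. Bmi1 at 0.48, Ezh1 at 0.20 and Ring1 at -0.42 were called but stayed within 1.5-fold, while Pcgf5, also called, stood at -0.06, as did the uncalled Rnf2 and Ezh2. The median difference of the 10 genes was -0.06, beside -0.10 for all genes tested with an SD of 0.80.

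Relative to the median of all genes, the difference of library 1 was 0.88 for Eed, 0.68 for Suz12, 0.58 for Bmi1 and 0.30 for Ezh1. It was -0.86 for Cbx7, -0.57 for Jarid2 and -0.32 for Ring1. Scaling by TMM moved the median of all genes to 0.00866 and scaling by DESeq2 size factors moved it to 0.03. Pcgf5, Ezh2 and Rnf2 changed sign with it, at 0.07 each under TMM and 0.10 each under DESeq2 size factors. Their direction is therefore not given. Under both scalings Bmi1 passed 1.5-fold as well, at 0.61 and 0.64, and Jarid2 no longer did, at -0.54 and -0.52. That made 3 of the 10 genes higher in library 1, beside 20.6% of all genes tested under TMM and 21.6% under DESeq2 size factors. It left 1 gene, Cbx7, lower, beside 20.2% and 19.5%.

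**Figure D4:**
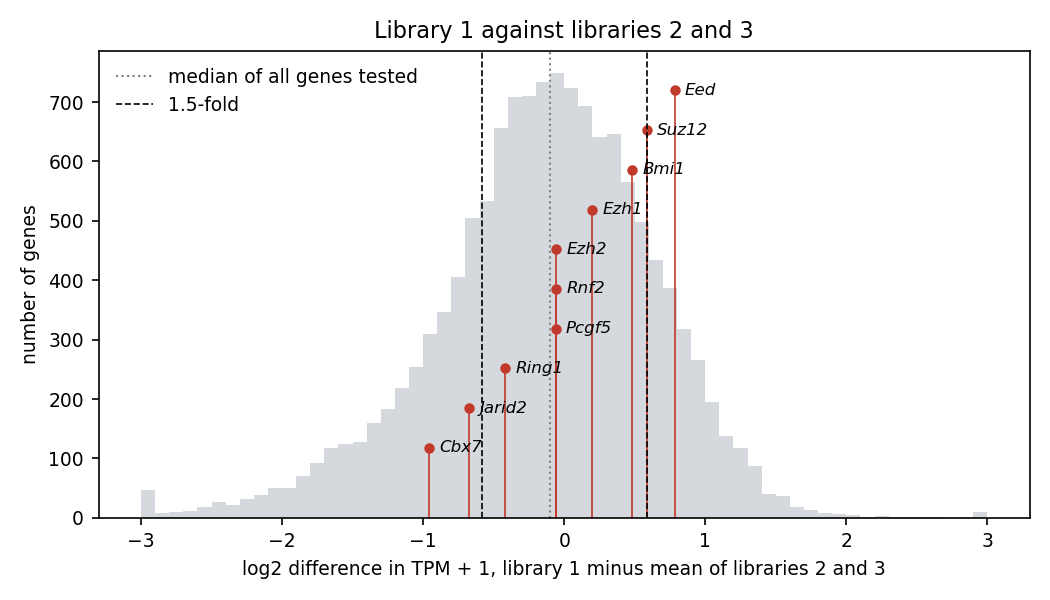
Histogram over 13177 genes of the log2 difference in TPM + 1, library 1 minus the mean of libraries 2 and 3, with values beyond 3 drawn at 3, and the 10 Polycomb complex genes as labelled stems whose height carries no value. Eed and Suz12 lie right of the upper dashed 1.5-fold line, Cbx7 and Jarid2 left of the lower one, and the dotted line marks the median of all genes at -0.10.

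Of the 43 other Polycomb genes that could be tested, 39 varied between the libraries, beside 75.8% of all genes tested. In library 1, 4 of the 43 were higher and 24 lower, beside 16.0% and 24.1% of all genes tested. Sums over a list include those of the 10 genes that belong to it. The summed TPM of the PRC2 core list, with Ezh1, Ezh2, Eed, Suz12, Rbbp4 and Rbbp7, was 933 in library 1, 686 in library 2 and 639 in library 3. Within it, Rbbp7 had 279, 155 and 143 TPM and Rbbp4 had 220, 219 and 212 TPM. Ezh2 was not highest in library 1. The sums of the PRC2 accessory, RING, Cbx, PHC and SCM, variant PRC1, Bap1 and demethylase lists were lower in library 1 than in both other libraries. That of the 6 Pcgf genes was 212 TPM in library 1, against 206 and 200.1 TPM in libraries 2 and 3. Fbrsl1, a variant PRC1 gene chosen after its values were seen, had 13.6, 77.5 and 75.1 TPM in libraries 1, 2 and 3. Summed over each marker list, TPM in libraries 1, 2 and 3 was 12374, 9265 and 9364 for T cell identity genes, 1.56, 3.24 and 2.37 for B cell markers and 2.67, 2.42 and 2.71 for myeloid markers. It was 5.65, 8.18 and 10.8 for CD8 markers, 9.27, 9.03 and 7.81 for natural killer markers and 8.78, 7.96 and 6.99 for mitotic genes. Within the T cell list, Trac had 6922, 3647 and 3493 TPM, whereas Cd3e had 374, 762 and 742 TPM and Cd4 had 269, 541 and 523 TPM, so its genes moved in opposite directions. The part of cell makeup in the differences was not tested. The sum of the 10 genes was 828 TPM in library 1, 813 in library 2 and 754 in library 3.

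Counting protein-coding transcripts alone, a choice made after seeing the data, left out the counts assigned to retained-intron and other non-coding transcripts. Cbx7 then had 69.5, 119 and 113 TPM and was still lower in library 1, with a log2 difference of -0.73. Jarid2 had 30.4, 45.1 and 42.8 TPM and a log2 difference of -0.52, within 1.5-fold. Eed had 178, 98.5 and 93.5 TPM and stayed higher, with a log2 difference of 0.88. Suz12 had 45.5, 37.2 and 36.1 TPM, and its difference of 0.30 fell within 1.5-fold. Of 10600 genes tested in this way, 18.6% were higher and 22.3% lower in library 1.

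A separate deposited table holds whole-number counts per gene on GENCODE M4 annotation, with totals of 5104745, 5047736 and 5278506 in libraries 1, 2 and 3. All 10 genes were in it. Their counts there were 13.7% (Cbx7) to 78.3% (Ezh2) of their M21 expected counts, as means of the 3 libraries. The fraction was larger in genes with more coding bases among their transcript bases, weighted by TPM, a share of 16.1% for Cbx7 and 73.4% for Ezh2. Spearman's rho over the 10 genes was 0.85, and over 9797 genes it was 0.54, 0.58 and 0.58 in libraries 1, 2 and 3. These are descriptions across genes of the same libraries. Ring1 lay farthest above equality, with 69.8% of its M21 count and 48.2% coding bases. Over all genes in library 2, the median was 29.2% where coding bases made up less than 20% and 82.0% where they made up at least 80%.

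In the M4 counts 7 of the 10 genes varied between libraries by the same chi-square test, beside 68.4% of 10219 genes tested. Eed had 1705, 1018 and 1110 counts in libraries 1, 2 and 3, and Cbx7 had 318, 523 and 542, so both kept the direction they had in TPM. The sign of the difference of library 1 was that of the TPM values for 7 genes, and it turned for Ezh2, Rnf2 and Pcgf5. The median log2 difference of all genes was 0.11 in counts of this table scaled to its library totals.

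**Figure D5:**
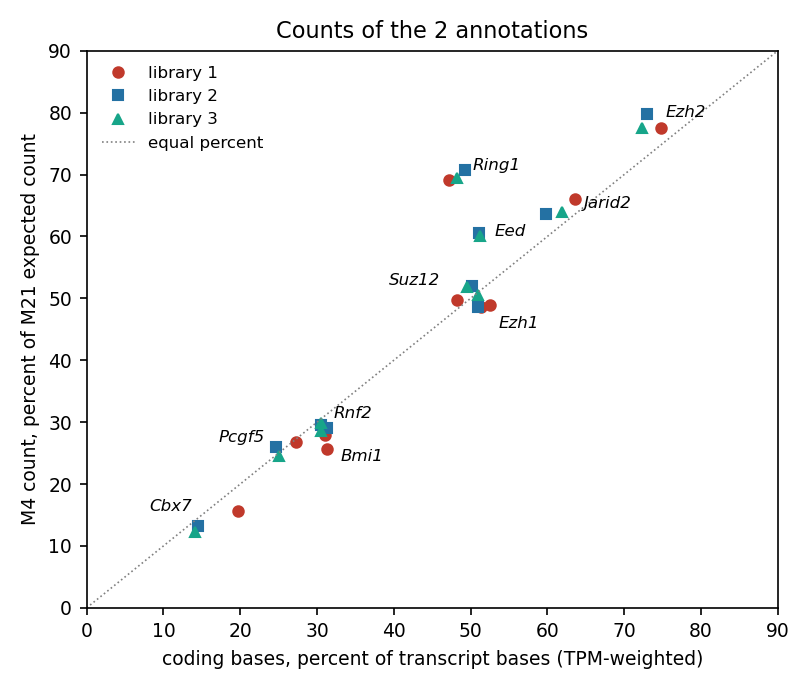
M4 count as a percent of the M21 expected count (y axis) against coding bases as a percent of transcript bases weighted by TPM (x axis), for the 10 genes in libraries 1, 2 and 3, with a dotted line of equal percent. Cbx7 lies lowest at 13.7%, Ezh2 highest at 78.3%, and Ring1 stands above the line at 69.8%.

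Several of the genes share exon bases with a gene on the opposite strand, and the sources used here do not give the strand setting of the counting. Rnf2 shares 158 bases with Trmt1l, which had 66.2, 49.4 and 41.9 TPM in libraries 1, 2 and 3. Cbx7 shares 100 bases with Apobec3, which had 114, 169 and 180 TPM. The overlap with the non-coding genes of Eed, Suz12, Ezh2 and Pcgf5 was 261, 178, 174 and 60 bases, and those partners had at most 4.71 TPM. Reads in these stretches could belong to either gene, and their part in the values was not tested. Ezh1, Jarid2, Bmi1 and Ring1 share no exon bases with another annotated gene.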

How the data were processed

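PolyA-selected RNA of 1 biosample was measured in 3 libraries labelled technical replicates, with shearing by Covaris and a size range of 100-300, per the labels. The authors deposited, for mm10 with GENCODE M21, gene and transcript tables of expected counts, TPM and FPKM, with a percent of its gene for each transcript, posterior means and intervals. A table without a header holds whole-number counts on GENCODE M4. The sources used here do not give the aligner, the quantifier or the strand setting. The authors' expected counts divide a read between matching transcripts, and TPM and FPKM were scaled within each library by the authors.

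The 10 genes were matched by symbol. Rows with numeric IDs (26248) and 97 other rows, with 0.226% to 0.304% of counts, were left out. Expected counts were rounded and genes with at least 30 counts in total tested with a chi-square test of homogeneity against library totals, Benjamini-Hochberg adjusted over all genes at 0.05. Such p-values and the SDs cover counting error or spread between libraries, not animals. Log2 differences use TPM + 1. Alternatives changed the scaling (TMM of edgeR 4.0.16, size factors of DESeq2 1.42.0, in R 4.3.3, used for scaling alone), the filter, the error, the unit and the libraries included. The chi-square step was run on counts simulated with counting error alone. Such counts lack the larger spread between these libraries, so the run does not cover the error rate of the calls here. Promoter windows are from RefSeq and transcript stretches from GENCODE. Python 3.11.15, numpy 2.4.6, scipy 1.17.1, pandas 2.3.3 and matplotlib 3.10.9 were used.

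The 10 genes and the lists were chosen with earlier results of these data known. All 10 genes are named, along with transcripts with a mean share of at least 10% and the highest and the undetected members of each list of Polycomb genes. Of the classical targets and the marker lists, only some undetected genes are named.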

Additional observations from a re-analysis of the deposited data

How the results depend on the processing

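Calls and counts of the 10 genes depended on the error model, the scaling and library 1. The number varying between libraries was 3 with the statistic divided by the median overdispersion, and 1 to 8 with each library left out in turn, 1 being the value without library 1. The number higher in library 1 was 1 under the overdispersion correction and 1 with protein-coding transcripts only. The number lower in library 1 was 1 under TMM, 1 under DESeq2 size factors and 1 with protein-coding transcripts only. The log2 difference of Pcgf5 changed sign to 0.070 under TMM (adjusted p = 0.264), 0.10 under DESeq2 size factors (adjusted p = 0.0479) and 0.00648 with protein-coding transcripts only. Rescaling TPM over protein-coding nuclear genes gave a median of 80.2 TPM for the 10 genes. In expected counts not divided by length, the shares were 78.1% for Ezh1 in its pair, 87.5% for Rnf2, 42.6% for Pcgf5 and 32.2% for Bmi1. The cause of these changes was not tested, except that the last set lacks the division by length. Leaving out library 2 or library 3 instead of library 1 also left fewer libraries, and 8 genes were called each time. Over all genes tested, 75.8% were called with all libraries and 16.7% without library 1. No such share is given for the runs without library 2 or library 3, or for direction under the overdispersion correction. Those counts are therefore not read as a result about the 10 genes. Rnf2 and Ezh2 passed the test under TMM (adjusted p = 2.01e-08 and 0.0210) and under DESeq2 size factors (adjusted p = 1.54e-11 and 0.00530). Pcgf5 did not pass with no filter beyond 1 count (adjusted p = 0.0742). No paired analysis was possible because the libraries form 1 group. The alternative with protein-coding transcripts only was chosen after seeing the data.

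As shares of expected counts rather than of transcripts per length, the leading transcripts had 72.5% (Eed-201), 61.2% (Jarid2-208), 57.9% (Ezh2-201), 52.5% (Ezh1-203), 49.9% (Bmi1-202), 49.6% (Cbx7-203) and 30.6% (Pcgf5-202). Suz12-201 with 83.7% then stood above Ring1-201 with 80.5%, and Rnf2-201 had 91.5%. Ezh2 and Ring1 had the lowest expected counts, 668 to 797 and 369 to 506 in the libraries, and transcripts at 0 are estimates.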
